A study of Mus musculus with 18 samples.

Results

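The plasma cell programme is described here through 9 genes (*Prdm1*, *Irf4*, *Xbp1*, *Pou2af1*, *Jchain*, *Mzb1*, *Derl3*, *Fkbp11* and *Sdc1*) in leukocytes that left an inflamed joint or an inflamed skin site, in leukocytes that stayed there, and in cells of the corresponding lymph nodes (LNs) at steady state. The genes were taken by symbol from the count table of 49585 genes. All 9 were found, and all 9 passed the filter on low counts in both fits. When an activated B cell becomes an antibody-secreting plasma cell, the transcription factors *Irf4* and *Prdm1* (which encodes Blimp-1) shut down much of the B cell identity programme. *Xbp1*, a transcription factor of the unfolded protein response, enlarges the endoplasmic reticulum (ER). The secreted product is then assembled with *Jchain*, which links IgM and IgA into polymers, and with the help of ER proteins encoded by *Mzb1*, *Derl3* and *Fkbp11*. Draining LNs are a main site where such cells arise after immunization. None of the 3 transcription factors belongs to plasma cells alone, since *Prdm1* and *Irf4* also act in T cells and dendritic cells (DCs) and *Xbp1* acts in many secretory and myeloid cells.

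The 18 libraries fall into 6 groups of 3 pooled samples of CD45+ cells, for which the protocol gives a sort on Kaede red. Kaede is a protein that turns irreversibly from green to red under UV light, so a red cell is taken to have been at the illuminated site when it was photoconverted. The study reports a slight rise in red cells of the joint-draining LN shortly after exposure, as incidental photoconversion. Some red cells of that LN may therefore not have come from the joint. All mice were of the Kaede strain, and age is not given in the labels. According to the protocol, recipients of OT-II CD4+ T cells polarized to Th1 were immunized with ovalbumin (OVA) in complete Freund's adjuvant and later challenged with heat-aggregated OVA (HAO) or PBS in the footpad or the ear pinna. The groups from inflamed mice were joint nonmigrated cells (from the ankle joint), joint migrated cells (from the joint-draining popliteal LN), skin nonmigrated cells (from the ear) and skin migrated cells (from the LN draining the ear). The other 2 groups were LN cells given as steady state, from the joint-draining node (titled PBS) and from the skin-draining node (titled Naive), and their labels too call them cells that had migrated to the node. They are named steady-state cells here, and "migrated" is kept for the groups from inflamed mice. The titles of the joint-draining steady-state samples also carry the letters KG, which no label explains. The gate and the immunization of the steady-state groups could not be checked, and if KG stands for Kaede green, the LN contrast of the joint would set migrated cells beside cells not tagged at the joint. Nothing in the labels says how many mice entered a pool, and p-values measure the spread between these pools only.

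Total gene counts were 19239531 to 43814403 per library, and the 6 libraries of inflamed skin were the shallowest. The column names of these 6 end in S and a number, unlike all others, and no label says whether they were sequenced apart. A difference of that kind could not be told apart from site between joint and skin cells of inflamed mice. It could not be told apart from inflammation in the skin-draining LN either. Levels are given as CPM, each count scaled by the TMM-normalized size of its library over the 18 libraries. A count of 3, used as the floor, corresponds to 0.0616 to 0.18 CPM, and this floor covers counting error only. The intervals given below for fold changes rest on the SE of the edgeR test and so include the spread between pools. The labelled tissues carried their markers: 9 macrophage genes summed to 6972 to 10470 CPM in joint nonmigrated and 2344 to 8250 CPM in skin nonmigrated cells against at most 205 CPM in any LN library, and *Ccr7*, the receptor that leads DCs and lymphocytes into LNs, had a mean of 1172 CPM in joint migrated against 40.1 CPM in joint nonmigrated cells. Transcripts of nonhaematopoietic cells were present despite the CD45+ sort. In skin nonmigrated cells 8 keratinocyte genes summed to 43.9 to 381 CPM, and 6 fibroblast genes summed to 128.6 to 362 CPM in joint nonmigrated and 59.99 to 255 CPM in skin nonmigrated cells.

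The members lie on separate chromosomes or far apart (mouse build GRCm38, GENCODE M21 gene models). *Prdm1* spans chr10:44437177-44528501 on the minus strand, *Derl3* chr10:75893413-75895941 (plus), *Irf4* chr13:30749226-30766976 (plus), *Xbp1* chr11:5520659-5525893 (plus), *Sdc1* chr12:8771323-8793715 (plus), *Fkbp11* chr15:98724366-98728198 (minus), *Jchain* chr5:88519809-88527891 (minus) and *Pou2af1* chr9:51213708-51240080 (plus). Each is annotated as protein coding.

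The 250 bases before the annotated start (RefSeq, GRCm38.p6) are shown for *Jchain*, *Derl3* and *Pou2af1*. *Jchain* and *Derl3* were higher and *Pou2af1* was lower in both comparisons of inflamed with steady-state LNs. *Prdm1* and *Sdc1* were also higher in both, and their windows were searched but are not shown. The windows shown lie upstream of the first exon of the gene, at chr5:88527898-88528147 (minus strand), chr10:75893148-75893397 (plus) and chr9:51213440-51213689 (plus). Capitals mark matches to searched motifs on either strand.
Jchain: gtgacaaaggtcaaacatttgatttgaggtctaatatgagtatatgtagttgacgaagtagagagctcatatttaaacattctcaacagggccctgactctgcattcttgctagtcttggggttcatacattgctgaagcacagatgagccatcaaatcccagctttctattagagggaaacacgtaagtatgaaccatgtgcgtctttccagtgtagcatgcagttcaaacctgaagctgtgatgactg
Derl3: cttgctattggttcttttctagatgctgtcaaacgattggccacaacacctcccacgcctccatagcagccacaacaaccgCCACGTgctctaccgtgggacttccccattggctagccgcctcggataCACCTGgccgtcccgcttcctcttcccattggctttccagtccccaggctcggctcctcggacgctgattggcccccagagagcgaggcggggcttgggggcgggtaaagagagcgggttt
Pou2af1: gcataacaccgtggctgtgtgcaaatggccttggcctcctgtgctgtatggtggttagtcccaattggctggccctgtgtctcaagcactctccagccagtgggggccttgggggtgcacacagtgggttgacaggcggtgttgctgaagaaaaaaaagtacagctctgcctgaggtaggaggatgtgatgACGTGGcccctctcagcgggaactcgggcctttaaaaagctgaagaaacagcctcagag
The core of the unfolded protein response element (ACGTGG) was found in *Derl3*, where it reads CCACGT because it lies on the minus strand 169 to 164 bases before the start, and in *Pou2af1*, 59 to 54 bases before the start. It occurs in 6.91% of the 32851 promoter windows of this length. The E-box CAGGTG, read as CACCTG on the strand shown, lies 121 to 116 bases before the *Derl3* start. It was also found upstream of *Xbp1* and in the *Prdm1* window (17.2% of all windows). The *Prdm1* window, chr10:44458749-44458998 (minus strand), lies inside the *Prdm1* span given above, before a RefSeq start within the gene. The octamer ATGCAAAT (1.6% of all windows) and the interferon-stimulated element (2.98%) were found in none of the 9 windows of the 8 members searched. *Jchain* held none of the 4 motifs in its window, and the windows of *Sdc1*, *Irf4* and *Fkbp11* held none either.

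**Figure D1:**
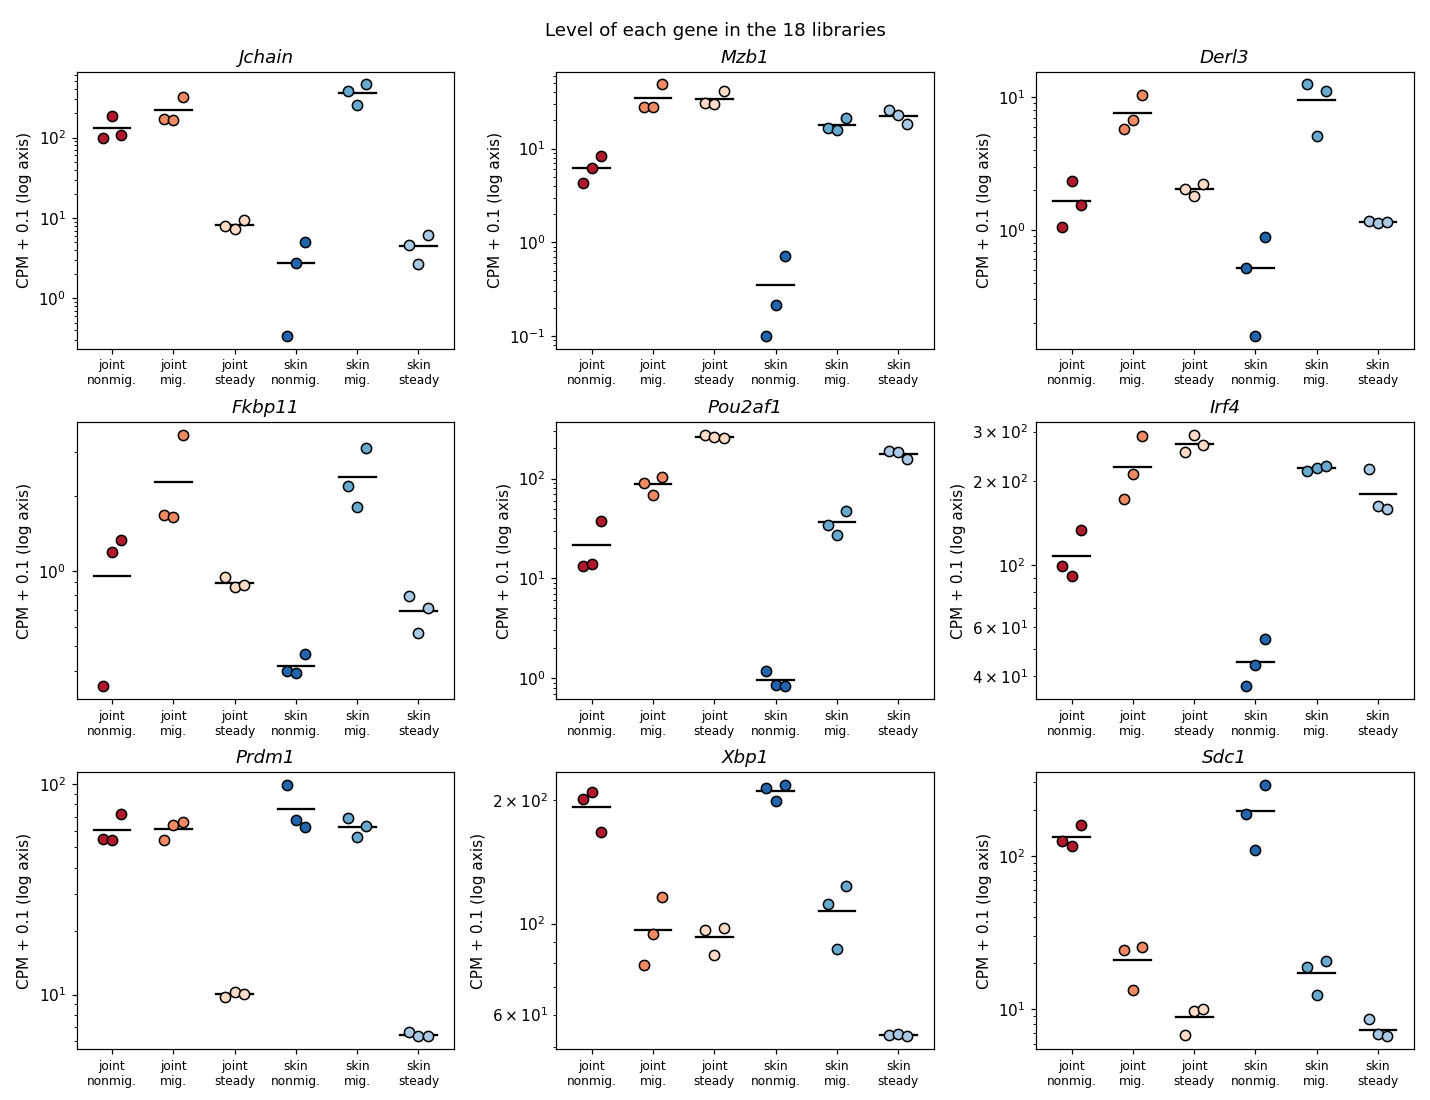
Level of each of the 9 genes in the 18 libraries, as CPM plus 0.1 on a log axis, with a point for each library and a line at the mean of the 3 libraries of each group (mig., migrated). *Jchain* lies at 168 to 459 CPM in the migrated groups and at 2.62 to 9.41 CPM in the steady-state LN groups, whereas *Pou2af1* is highest in the steady-state LNs and *Sdc1* and *Xbp1* in the nonmigrated groups.

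Of the genes for secreted product and its assembly, *Jchain* had the widest range. It was counted at 170.7, 168 and 325 CPM in joint migrated cells and at 375, 251 and 459 CPM in skin migrated cells. At steady state it was at 7.83, 7.27 and 9.41 CPM in the joint-draining LN and at 4.55, 2.62 and 6.14 CPM in the skin-draining LN. Every migrated library therefore lay far above every steady-state library. Cells that stayed in the inflamed joint held 100.2, 187 and 107.6 CPM, which overlapped the joint migrated libraries, whereas cells that stayed in the inflamed skin held 0.24, 2.69 and 4.94 CPM, from only 4, 46 and 95 counts. By mean level the order was skin migrated, joint migrated and joint nonmigrated, each overlapping the next, then joint steady state (apart from the next), skin steady state and skin nonmigrated, the last pair overlapping. In bulk samples, fewer cells of a type and less RNA per cell cannot be told apart, and this applies to every level below.

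*Mzb1*, an ER protein of marginal zone B cells, B1 cells and plasma cells that assists antibody folding, did not share this order. It was at 27.7, 27.6 and 48.2 CPM in joint migrated and at 30.8, 30.0 and 41.1 CPM in joint steady-state cells, so these groups overlapped. Skin migrated cells held 16.4, 15.7 and 20.97 CPM and skin steady-state cells 25.9, 23.0 and 18.03 CPM, which overlapped as well. Levels were low where cells had stayed in the tissue, at 4.19, 6.11 and 8.15 CPM in the joint and at 0, 0.117 and 0.624 CPM (0, 2 and 12 counts) in the skin. Only 1 of the 3 skin nonmigrated libraries exceeded the floor of 3 counts.

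*Derl3* takes part in ER-associated degradation and *Fkbp11* is an ER prolyl isomerase, and both are strongly expressed in plasma cells. *Derl3* was at 5.63, 6.61 and 10.3 CPM in joint migrated and 12.4, 5.0 and 11.1 CPM in skin migrated cells. Steady-state LNs held 1.69 to 2.13 CPM (joint) and 1.02 to 1.08 CPM (skin), joint nonmigrated cells 0.958 to 2.23 CPM and skin nonmigrated cells 0.0585 to 0.78 CPM. The migrated libraries lay above all others. *Fkbp11* was low in every group, with means of 2.18 ± 1.07 (SD, n = 3) and 2.27 ± 0.675 CPM in joint and skin migrated cells and of 0.859, 0.794, 0.590 and 0.319 CPM in joint nonmigrated, joint steady-state, skin steady-state and skin nonmigrated cells. Its skin nonmigrated libraries held only 5 to 7 counts each.

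*Pou2af1* encodes the B cell coactivator OBF-1, which works with octamer-binding factors at immunoglobulin promoters in B cells and plasma cells. It was highest in the steady-state LNs, at 275, 259.6 and 253 CPM in the joint-draining and 189.7, 183 and 156 CPM in the skin-draining node. Joint migrated cells held 90.7, 67.8 and 104 CPM and skin migrated cells 34.2, 26.8 and 47.5 CPM, below every steady-state library. Joint nonmigrated cells held 13.2, 13.7 and 37.3 CPM, and replicate 3 stood apart from the other 2. Skin nonmigrated cells were at 0.728 to 1.08 CPM. Its order of groups, and not that of *Jchain*, was the order of the 15 B cell identity genes, whose mean log2(CPM + 0.1) was 8.69 and 8.30 in the joint and skin steady-state groups, 6.54 and 4.55 in the joint and skin migrated groups, and 3.93 and 0.97 in the joint and skin nonmigrated groups.

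The transcription factors differed from each other. *Prdm1* had overlapping levels in all 4 inflamed groups, with means of 60.1 (joint nonmigrated), 61.1 (joint migrated), 76.2 (skin nonmigrated) and 62.5 CPM (skin migrated). It stood at 9.68, 10.2 and 9.92 CPM in the joint and 6.53, 6.30 and 6.23 CPM in the skin steady-state LN. No inflamed library was below 53.9 CPM, and no steady-state library was above 10.2 CPM. *Irf4* was at 172.6 to 289 CPM in joint migrated, 217 to 226.5 CPM in skin migrated, 253 to 292.5 CPM in joint steady-state and 158 to 220 CPM in skin steady-state cells, with each group overlapping its neighbour in the order of levels. It was lower in cells that stayed in the joint (91.2 to 133 CPM) and lowest in those that stayed in the skin (36.6 to 54.3 CPM). *Xbp1* was highest in nonmigrated cells, at 168 to 209.5 CPM in the joint and 199 to 218 CPM in the skin. It was at 79.3 to 116 CPM in joint migrated, 86.4 to 123 CPM in skin migrated, 83.9 to 97.5 CPM in joint steady-state and 53.0 to 53.6 CPM in skin steady-state cells.

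*Sdc1* encodes syndecan-1 (CD138), a heparan sulfate proteoglycan used to identify plasma cells, which epithelial cells and some macrophages also carry. Its highest levels were in nonmigrated cells, at 125, 116 and 159 CPM in the joint and 188, 108 and 289.7 CPM in the skin. Joint migrated cells held 24.3, 13.3 and 25.5 CPM and skin migrated cells 18.7, 12.3 and 20.7 CPM. Steady-state cells held 6.72 to 9.99 CPM (joint) and 6.57 to 8.55 CPM (skin), below every migrated library. The order of *Sdc1* was thus nonmigrated, migrated and steady state at both sites. In the joint nonmigrated libraries, where *Sdc1* was at 116 to 159 CPM, the keratinocyte genes *Krt14* and *Krt1* were at or under the floor and *Krt5* reached at most 17 counts. Of the other genes of that list, *Krt10* and *Dsp* had means of 0.671 and 0.624 CPM there and *Sfn* of 13.2 CPM, and *Sfn* stood at 69.3 CPM in joint steady-state cells. In skin nonmigrated cells *Krt5* had a mean of 78.0 CPM and *Krt14* of 56.0 CPM. The macrophage markers *Adgre1* (595 and 193 CPM in joint and skin nonmigrated cells, at most 11.2 CPM elsewhere) and *Mertk* (109 and 47.9 CPM, at most 2.22 CPM elsewhere) were also highest in the nonmigrated groups. Unlike *Sdc1*, both had a higher mean in the joint than in the skin. Their part in the level of *Sdc1* was not tested.

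Scaled per kilobase of exon, so that genes can be set beside each other, *Jchain* was the highest member in both migrated groups, at 87.9 CPM per kb in joint and 143.7 CPM per kb in skin migrated cells, and *Irf4* came next. *Pou2af1* led in both steady-state LNs (103 and 69.1 CPM per kb), where *Jchain* was only at 3.25 and 1.76 CPM per kb. *Xbp1* led in both nonmigrated groups (59.4 and 64.7 CPM per kb). In the joint nonmigrated group *Jchain* followed it at 52.3 CPM per kb, and in the skin nonmigrated group *Sdc1* did at 51.3 CPM per kb.

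Migrated cells were compared with cells that stayed in the joint to ask which transcripts accompany exit from an inflamed joint. In joint migrated cells *Mzb1*, *Pou2af1* and *Irf4* were higher and *Sdc1* was lower. *Jchain* and *Prdm1* did not pass the test. A gene was called when edgeR's quasi-likelihood test gave an adjusted p (Benjamini-Hochberg) below 0.001 and its log2 fold change exceeded 1 in size. By this rule 4 of the 9 members were called, 3 higher and 1 lower, and 21.4% of the 16777 genes tested were called in this comparison (8.8% higher and 12.6% lower). *Mzb1* was higher by a log2 fold change of 2.49 (SE 0.43, adjusted p = 0.00043), *Pou2af1* by 2.04 (SE 0.37, adjusted p = 0.000721) and *Irf4* by 1.06 (SE 0.20, adjusted p = 0.000921). *Sdc1* fell by 2.66 on the log2 scale (SE 0.35, adjusted p = 7.14e-05), with no overlap between groups.

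The ER genes *Derl3* (log2 fold change 2.29, SE 0.52, adjusted p = 0.00278) and *Fkbp11* (1.35, SE 0.51, adjusted p = 0.0417) passed the adjusted p of 0.05 named in the study's methods but not that of 0.001, which brought the members called at 0.05 to 6 (34.3% of all genes). *Xbp1* had a log2 fold change of -0.995 (SE 0.16, adjusted p = 0.0003), just inside the limit on size. For *Jchain* the log2 fold change was 0.75 (95% interval -0.38 to 1.88, adjusted p = 0.24) and for *Prdm1* 0.03 (95% interval -0.37 to 0.42, adjusted p = 0.914). Each of the 3 higher calls was lost when some single libraries were left out. Without joint nonmigrated replicate 1 or 2, or without joint migrated replicate 2, only *Sdc1* was called. Without joint migrated replicate 3 the called members were *Sdc1* and *Xbp1*, both lower, and with only the joint libraries in the fit 2 members were called. B cell identity genes moved with the higher members, with 8 of 15 higher, 0 lower and a median log2 fold change of 2.41 against 0.02 over all genes tested. So did T cell genes (9 of 9 higher, median 2.94) and migratory DC genes (6 of 7 tested higher, median 3.66), while 9 of 9 macrophage genes (median -6.95) and 7 of 7 neutrophil genes (median -8.13) were lower, as was *Sdc1*. The part of these cells in the members' values was not tested.

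**Figure D2:**
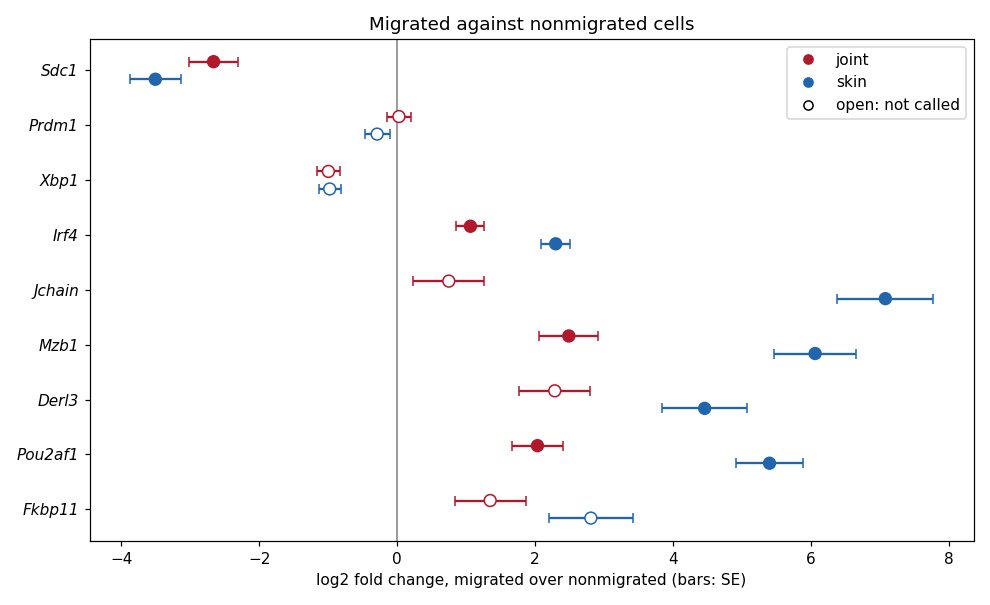
Log2 fold change of migrated over nonmigrated cells for the 9 genes, in the joint (red) and the skin (blue), with bars of 1 SE and open symbols for genes that were not called. *Jchain*, *Mzb1*, *Derl3*, *Pou2af1*, *Irf4* and *Fkbp11* lie further to the right in the skin, *Sdc1* lies to the left at both sites, and *Prdm1* lies near 0. For *Derl3* and *Fkbp11* the difference between the sites did not pass at an adjusted p of 0.05.

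The same comparison was made in the skin. *Jchain*, *Mzb1*, *Pou2af1*, *Derl3* and *Irf4* were higher and *Sdc1* was lower in skin migrated cells. These 6 calls (5 higher and 1 lower) stand beside 20.9% of all genes tested (8.49% higher and 12.4% lower). The log2 fold changes were 7.08 for *Jchain* (SE 0.70, adjusted p = 7.86e-06), 6.06 for *Mzb1* (SE 0.60, adjusted p = 8.31e-06), 5.40 for *Pou2af1* (SE 0.49, adjusted p = 4.47e-06) and 4.46 for *Derl3* (SE 0.62, adjusted p = 9.78e-05). *Irf4* was higher by 2.30 (SE 0.21, adjusted p = 4.93e-06), and *Sdc1* fell by 3.50 (SE 0.37, adjusted p = 1.31e-05). The sizes for *Jchain*, *Pou2af1*, *Derl3*, *Fkbp11* and *Mzb1* rest on 145, 45, 23, 17 and 14 counts summed over the 3 skin nonmigrated libraries and are correspondingly uncertain. The 95% interval was 5.56 to 8.60 for *Jchain* and 4.75 to 7.37 for *Mzb1*, and without skin nonmigrated replicate 3 the log2 fold change of *Mzb1* was 8.13. *Fkbp11* (2.81, SE 0.61, adjusted p = 0.00204) passed at 0.05 only (7 members and 35.4% of all genes), *Xbp1* had a log2 fold change of -0.98 (adjusted p = 0.000347), and *Prdm1* had -0.29 (95% interval -0.68 to 0.11, adjusted p = 0.192). B cell identity genes were higher here too, in 9 of 15, with a median of 3.34. T cell genes were higher in 4 of 9 (median 1.71) and migratory DC genes in 4 of 7 tested (median 2.16), and 9 of 9 macrophage (median -5.01) and 7 of 7 neutrophil genes (median -7.60) were lower.

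A test of the difference between the joint and skin changes called none of the 9 members at 0.001, where 0.119% of all genes were called, and 4 at 0.05, where 6.13% were. At 0.05 the change was smaller in the joint for *Jchain* (difference in log2 fold change -6.33, SE 0.82, adjusted p = 0.00185), *Pou2af1* (-3.36, SE 0.60, adjusted p = 0.00806), *Mzb1* (-3.57, SE 0.74, adjusted p = 0.0152) and *Irf4* (-1.24, SE 0.29, adjusted p = 0.0244). *Derl3* (-2.17, 95% interval -3.90 to -0.45, adjusted p = 0.11) and *Fkbp11* (-1.46, -3.19 to 0.27, adjusted p = 0.264) did not pass at 0.05. For *Sdc1* the difference was 0.84 (95% interval -0.20 to 1.89), for *Xbp1* -0.02 (-0.52 to 0.48) and for *Prdm1* 0.32 (-0.24 to 0.87). The number called at 0.001 depended on the settings: it was 2 (*Jchain* and *Pou2af1*) without the filter on low counts and with all 18 libraries in the fit, 3 (also *Mzb1*) with DESeq2, and 1 (*Jchain*) without skin nonmigrated replicate 3.

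Cells that stayed in the joint were set beside cells that stayed in the skin. Between these nonmigrated groups, *Jchain* (log2 fold change 5.62, SE 0.66, adjusted p = 0.000238), *Pou2af1* (4.64, SE 0.48, adjusted p = 0.000125) and *Mzb1* (4.54, SE 0.60, adjusted p = 0.000445) were higher in the joint. They were 3 of 9 members, with 3.05% of all genes called, and 5 members and 14.3% of all genes were called at 0.05. *Irf4* (1.26, SE 0.21, adjusted p = 0.00141) and *Derl3* (1.83, SE 0.62, adjusted p = 0.0464) passed at 0.05 only. *Prdm1* (-0.35), *Xbp1* (-0.13) and *Sdc1* (-0.56) did not pass. The B cell identity genes were higher in the joint in 6 of 15, with a median of 2.60. No member was called when only these 2 groups were fitted, and 1 was called without joint nonmigrated replicate 2 or without skin nonmigrated replicate 2.

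Between joint and skin migrated cells no member was called by edgeR at 0.001 or at 0.05, where 0% and 1.14% of all genes were called, although 2770 of 16777 genes had an unadjusted p below 0.05. DESeq2 also called 0 members at 0.001. The largest differences were 1.28 for *Pou2af1* (95% interval 0.48 to 2.08, unadjusted p = 0.00474, adjusted p = 0.11) and 0.97 for *Mzb1* (0.08 to 1.85, unadjusted p = 0.0354, adjusted p = 0.263), both higher in the joint. *Jchain* differed by -0.71 (-1.84 to 0.42, adjusted p = 0.536). Of the 15 B cell identity genes, 10 were higher in the joint at 0.05 and 0 at 0.001, with a median of 2.17. These comparisons share libraries with the migration comparisons and are not independent of them.

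The LN libraries address how cells found in the node of an inflamed site differ from steady-state LN cells. In the joint-draining LN of inflamed mice, *Jchain*, *Prdm1*, *Derl3* and *Sdc1* were higher and *Pou2af1* was lower. Thus 5 of 9 members were called, and 15.9% of the 17107 genes tested were (12.4% higher and 3.5% lower). *Jchain* was higher by a log2 fold change of 4.79 (SE 0.35, adjusted p = 1.47e-07), *Prdm1* by 2.65 (SE 0.11, adjusted p = 3.95e-09), *Derl3* by 1.99 (SE 0.31, adjusted p = 0.00013) and *Sdc1* by 1.29 (SE 0.25, adjusted p = 0.000869). *Pou2af1* fell by 1.55 (SE 0.18, adjusted p = 1.24e-05). *Fkbp11* (1.48, SE 0.34, adjusted p = 0.00258) passed at 0.05 only, where 6 members and 24.2% of all genes were called. The remaining members had intervals around 0, with log2 fold changes of 0.05 for *Mzb1* (95% interval -0.41 to 0.51), 0.09 for *Xbp1* (-0.21 to 0.40) and -0.24 for *Irf4* (-0.59 to 0.11). *Sdc1* was the least stable call and was lost without any single library but joint migrated replicate 2. Without joint steady-state replicate 2, 3 members were called (*Jchain*, *Prdm1* and *Pou2af1*), and 3 were with all 18 libraries in the fit.

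In the skin-draining LN the same contrast called 7 of 9 members, where 25.1% of all genes were called (16.6% higher and 8.51% lower). *Jchain* (log2 fold change 6.39, SE 0.38, adjusted p = 1.25e-08), *Prdm1* (3.33, SE 0.11, adjusted p = 2.96e-10), *Derl3* (3.21, SE 0.33, adjusted p = 2.04e-06) and *Fkbp11* (1.97, SE 0.36, adjusted p = 0.000324) were higher. *Sdc1* (1.27, SE 0.26, adjusted p = 0.000737) and *Xbp1* (1.04, SE 0.14, adjusted p = 3.13e-05) were higher as well. *Pou2af1* fell by 2.25 (SE 0.19, adjusted p = 3.05e-07). *Irf4* (0.33, 95% interval -0.02 to 0.69) and *Mzb1* (-0.30, 95% interval -0.78 to 0.17) did not pass, and at 0.05 the count of members was again 7 (36.5% of all genes). The calls for *Sdc1*, *Xbp1* and *Fkbp11* were lost, leaving 4 members, when skin migrated replicate 1 or 3 or any of the 3 skin steady-state libraries was left out. *Xbp1* also fell under the limit on size without the filter on low counts. It lost its call in 8 of all 15 alternatives, over which its log2 fold change was 0.88 to 1.13.

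**Figure D3:**
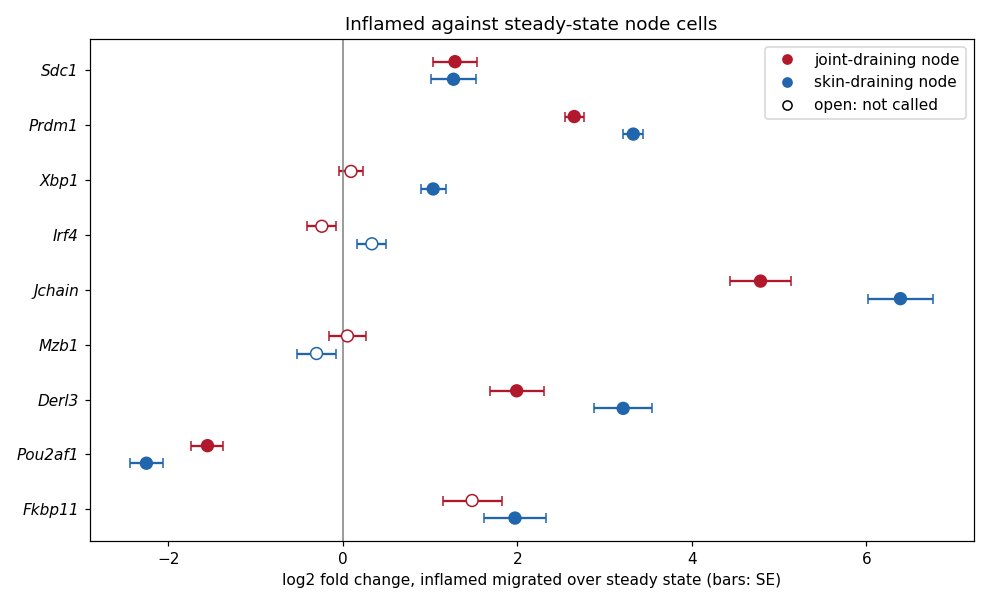
Log2 fold change of migrated cells of inflamed mice over steady-state LN cells for the 9 genes, in the joint-draining (red) and skin-draining LN (blue), with bars of 1 SE and open symbols for genes that were not called. *Jchain* lies furthest to the right (4.79 and 6.39), *Pou2af1* lies to the left (-1.55 and -2.25), and *Mzb1* and *Irf4* lie near 0.

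The joint and skin LN changes were then compared with each other. The steady-state groups differ in title (PBS in the joint, Naive in the skin) as well as in site. Site can therefore not be told apart from the kind of control here or between the steady-state LNs. None of the 9 members was called at 0.001 (0.889% of all genes), and *Jchain* was at 0.05 (6.11% of all genes), with a difference of -1.60 (SE 0.44, adjusted p = 0.0357). *Xbp1* (-0.94, adjusted p = 0.0107) and *Prdm1* (-0.68, adjusted p = 0.012) had smaller differences than the limit on size. Between the 2 steady-state LNs no member was called at either threshold (1.44% and 3.89% of all genes, with 3708 at an unadjusted p below 0.05), and DESeq2 called 0. All 9 log2 fold changes, joint over skin, were between 0.26 and 0.89 there. Of the marker lists, 3 of 9 macrophage genes and 7 of 7 neutrophil genes were also higher in the joint steady-state node, with neutrophil genes summing to 471 to 927 CPM against 9.14 to 15.2 CPM, and their part was not tested.

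Markers of other cells that moved with the LN contrast are given beside it. Of the 15 B cell identity genes, 14 were lower in both LN comparisons and 0 were higher, with a median log2 fold change of -2.14 in the joint-draining and -4.14 in the skin-draining LN, against -0.02 and 0.00 over all genes. *Cd79a*, a part of the B cell receptor, fell from a mean of 1192 CPM in joint steady-state to 235 CPM in joint migrated cells. The 8 migratory DC genes summed to 469 to 779 CPM in steady-state and 2872 to 8155 CPM in migrated libraries. T cell genes, which could also carry *Prdm1* and *Irf4*, summed to 2113 to 2847 CPM in all 12 LN libraries, with 1 of 9 higher in each LN contrast. Macrophage genes, which could bear on *Sdc1*, summed to 57.9 to 140 CPM in joint migrated and 77.8 to 131 CPM in joint steady-state libraries, with 0 of 9 called. In the skin they summed to 107 to 205 CPM in migrated and 17.9 to 23.6 CPM in steady-state libraries, with 8 of 9 higher (median 3.32). Neutrophil genes were lower in the joint contrast in 7 of 7 (median -3.88) and called in 0 of 7 in the skin contrast. The 8 genes of plasmacytoid DCs, which also express *Mzb1*, summed to 240 to 359 CPM in all 18 libraries but differed among themselves, with 2 higher and 2 lower in the joint and 2 higher and 3 lower in the skin contrast. In the joint and the skin contrast *Ccr9* had called log2 fold changes of -1.53 and -3.72 and *Pacsin1* of -1.08 and -2.10, whereas *Siglech* was higher in the joint (1.31) and lower in the skin (-2.66). *Runx2* of the same list rose in both, with means of 24.4 CPM in joint steady-state and 136 CPM in joint migrated cells. In the skin-draining LN its means were 19.0 CPM (steady state) and 128 CPM (migrated), and those of *Klk1* were 1.44 and 14.5 CPM. The part of any of these cells in the members' values was not tested.

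**Figure D4:**
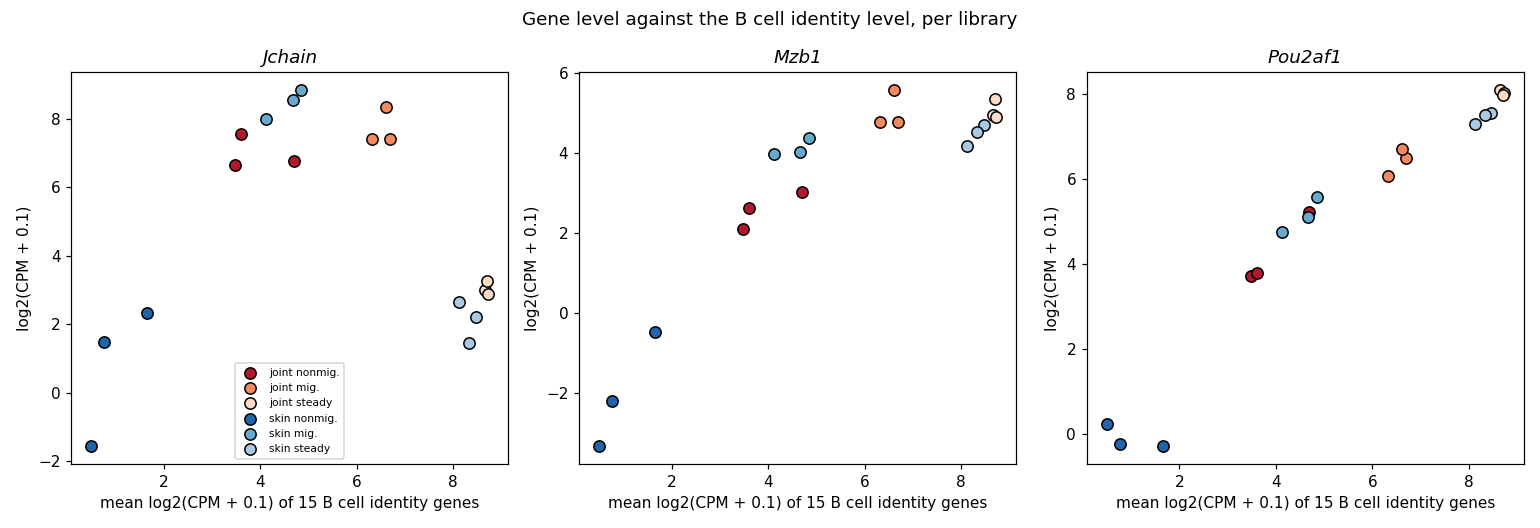
Level of *Jchain*, *Mzb1* and *Pou2af1*, as log2(CPM + 0.1), against the mean log2(CPM + 0.1) of 15 B cell identity genes, with a point for each of the 18 libraries coloured by group. *Pou2af1* follows the B cell level across the groups, whereas *Jchain* is low in the 6 steady-state libraries, where the B cell level is highest.

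Set against the B cell identity level of the same library, the members separated into different patterns. Log2 CPM of *Pou2af1* minus that mean stayed within a narrow band, with group means of -0.65 and -0.84 in the steady-state, -0.11 and 0.59 in the migrated, and 0.32 and -1.05 in the nonmigrated groups (joint, then skin). For *Jchain* the same difference was -5.65 and -6.20 in the steady-state groups, 1.18 and 3.91 in the migrated groups, and 3.06 and -0.22 in the nonmigrated groups. *Mzb1* lay between, at -3.62 and -3.83 (steady state), -1.48 and -0.41 (migrated), and -1.33 and -2.97 (nonmigrated). These points share library and depth, and the values are a description without a test. The ratio of *Jchain* to *Pou2af1* CPM, which does not depend on library size, was 0.0143 to 0.0393 in the 6 steady-state libraries, 1.88 to 3.11 in joint migrated, 9.36 to 11 in skin migrated and 2.88 to 13.7 in joint nonmigrated libraries. The ratio of *Jchain* to *Mzb1* was 0.114 to 0.341, 6.09 to 6.74, 16 to 22.8 and 13.2 to 30.7 in the same order. In skin nonmigrated libraries, where both genes of each ratio were low, the first ratio was 0.222, 3.54 and 6.79 and the second was 7.92 in replicate 3 and not computed in the other 2, whose *Mzb1* counts were at or under the floor. The steady-state libraries lay below every other library for which a ratio was computed.

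Immunoglobulin constant genes, of which *Ighm* and *Igha* encode the heavy chains of the IgM and IgA that *Jchain* links, divided by class. In the joint-draining LN 6 of 12 were higher and 3 lower in inflamed mice, with a median log2 fold change of 1.88. In the skin-draining LN 8 were higher and 3 lower, with a median of 3.36. The shares over all genes were 12.4% higher and 3.5% lower in the joint-draining and 16.6% and 8.51% in the skin-draining LN. The 6 switched heavy chains (*Ighg1*, *Ighg2b*, *Ighg2c*, *Ighg3*, *Igha* and *Ighe*) were among the higher genes in both. The largest changes were *Ighe* (4.79, SE 0.49, adjusted p = 3.46e-06) and *Igha* (4.76, SE 0.61, adjusted p = 2.42e-05) in the joint-draining LN, and *Ighg2c* (7.54, SE 0.57, adjusted p = 1.12e-07) and *Ighg3* (6.57, SE 0.57, adjusted p = 3.6e-07) in the skin-draining LN. *Ighd*, the IgD chain of naive B cells, fell by 2.50 (SE 0.19) and 4.97 (SE 0.22), and the light chain *Iglc3* fell by 1.49 and 2.35. *Ighm* was higher in the skin-draining LN (1.01, SE 0.20, adjusted p = 0.000592) and had a log2 fold change of 0.25 (adjusted p = 0.302) in the joint-draining LN, and the difference between the LNs was not called. Sequences of the *Ighg* genes are close to each other, so the division of counts among them is uncertain.

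**Figure D5:**
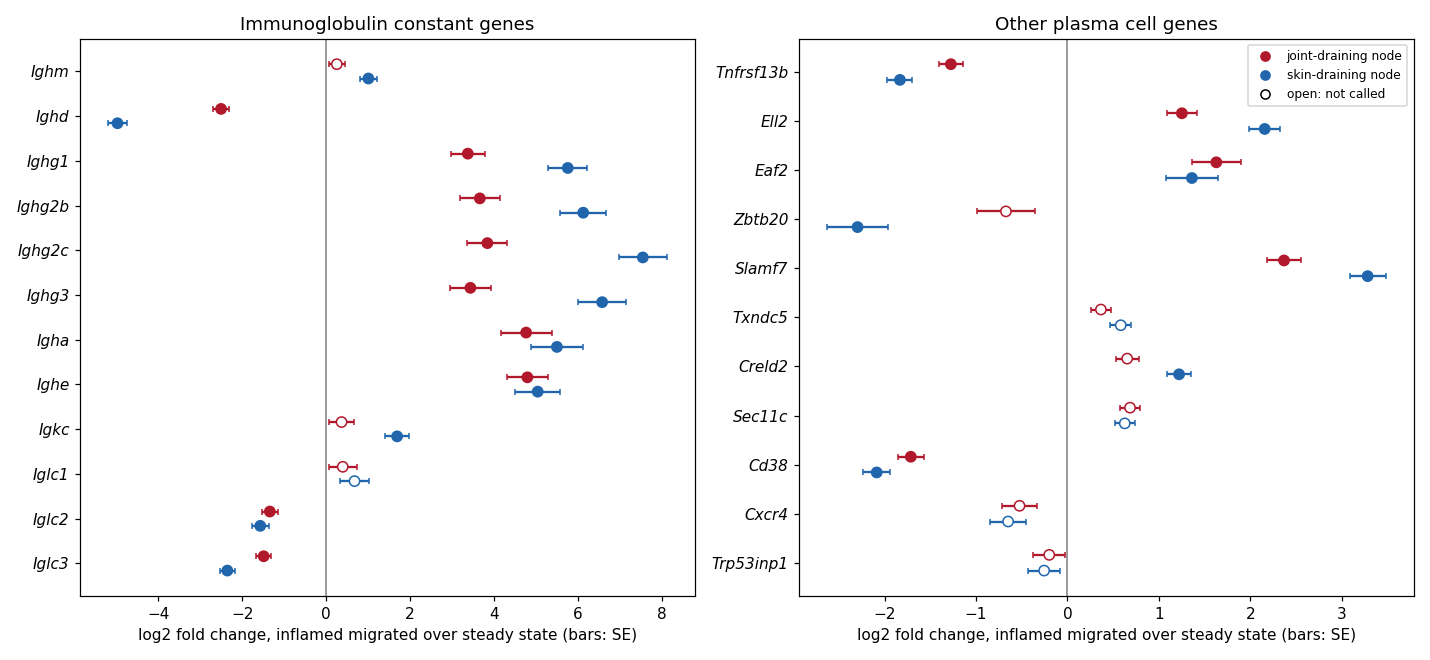
Log2 fold change of migrated cells of inflamed mice over steady-state LN cells for 12 immunoglobulin constant genes (left) and other genes of plasma cells (right), in the joint-draining (red) and skin-draining LN (blue), with bars of 1 SE and open symbols for genes that were not called. *Ighg1*, *Ighg2b*, *Ighg2c*, *Ighg3*, *Igha* and *Ighe* lie to the right and *Ighd*, *Iglc2* and *Iglc3* to the left in both, and *Tnfrsf17* is not drawn because its steady-state libraries held at most 3 counts.

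Migrated and nonmigrated cells differed in the constant genes as follows, and a cause was not tested. In the skin all 12 were higher in migrated cells, with the smallest log2 fold change for *Iglc3* (4.61) and *Ighd* (4.82). In the joint 5 were higher and 0 lower, with a median of 2.03, among them *Ighd* (4.04, SE 0.33, adjusted p = 2.22e-06) and *Ighm* (2.13, SE 0.36, adjusted p = 0.00043). The shares over all genes were 8.8% higher and 12.6% lower in the joint and 8.49% and 12.4% in the skin. *Igha* went the other way in the joint. It was at a mean of 510 ± 154 CPM in joint nonmigrated and 91.0 ± 79.7 CPM in joint migrated cells (SD, n = 3, no overlap), a log2 fold change of -2.48 (SE 0.80, adjusted p = 0.0196) that passed at 0.05 only. *Jchain* was at 100.2 to 187 CPM in those same joint nonmigrated libraries, where *Ighg2b* had a mean of 168 CPM. In skin nonmigrated cells *Igha* was at 10.3 and *Ighg2b* at 3.96 CPM.

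Of 12 other genes of plasma cells, 4 were higher and 2 lower in the joint-draining LN and 5 were higher and 3 lower in the skin-draining LN. Of all genes tested, 12.4% were higher and 3.5% lower in the joint-draining LN, and 16.6% and 8.51% in the skin-draining LN. *Tnfrsf17*, which encodes the plasma cell survival receptor BCMA, held 28 to 54 counts in joint migrated and 12 to 35 counts in skin migrated libraries, against at most 1 and 3 counts in the joint and skin steady-state libraries. *Slamf7*, a surface receptor of plasma cells and other lymphocytes, was higher by 2.37 (SE 0.19, adjusted p = 3.33e-07) and 3.28 (SE 0.20, adjusted p = 1.36e-08). *Ell2*, the elongation factor that favours the secreted form of heavy chain mRNA, was higher by 1.25 and 2.16, and *Eaf2*, its partner, by 1.63 and 1.36. *Cd38* fell by 1.71 and 2.09 and *Tnfrsf13b* by 1.28 and 1.83. In the migration comparison *Eaf2* was higher at both sites (2.38 and 2.99). It was the sole call of the list in the joint, where 21.4% of all genes were called. In the skin 2 of the list were higher and 2 lower, where 20.9% of all genes were called. *Ell2* fell by 1.47 and *Cd38* by 2.14 in the skin.

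The general secretory machinery of the ER, which *Xbp1* serves, was read against the 15.9% and 25.1% of all genes called in the joint-draining and skin-draining LN. Of 18 chaperone and folding genes, 2 were higher and 1 lower in the joint-draining LN (median log2 fold change 0.07) and 3 were higher and 0 lower in the skin-draining LN (median 0.77). *Pdia5*, a disulfide isomerase, was higher in both (2.97 and 3.50), as was *Sdf2l1*, a chaperone component (1.07 and 2.02). Of 15 tested genes for translocation and signal peptide cleavage, 0 and 1 (*Sec61b*, 1.06) were higher, and 1 further gene of that list, *Srp54a*, was at the floor in every group. Of 12 genes for ER-associated degradation, 1 was higher and 1 lower in the joint-draining LN and 3 were higher and 1 lower in the skin-draining LN, with *Vcp* higher (1.11 and 1.30) and *Syvn1* lower (-1.03 and -1.40) in both. Among 10 stress sensors and effectors, 2 were higher and 1 lower in the joint-draining LN and 2 were higher and 0 lower in the skin-draining LN. *Ern1*, the sensor that splices *Xbp1* mRNA, was higher by 1.39 (SE 0.13, adjusted p = 1.8e-06) and 1.36 (SE 0.13, adjusted p = 1.3e-06). *Asns*, an asparagine synthetase induced by the stress response, was higher by 2.12 and 5.51. Against nonmigrated cells *Ern1* went the other way and fell by 1.57 in the joint and 1.25 in the skin. The counts do not separate spliced from unspliced *Xbp1* mRNA.

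Among 6 genes of germinal centre and activated B cells, *Mki67*, *Fas* and *S1pr2* were higher in both LN contrasts, where 12.4% (joint) and 16.6% (skin) of all genes were higher. *Mki67*, a marker of cycling cells of any type, rose from means of 54.1 and 30.5 CPM in the joint and skin steady-state LNs to 421.5 and 359 CPM in the migrated groups, a log2 fold change of 3.00 and 3.59. *Bcl6*, which opposes *Prdm1* in B cells, had log2 fold changes of -0.39 and -0.14 and was not called. *Bach2*, another repressor of plasma cell differentiation counted in the B cell list, fell by 2.03 and 3.25.

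Genes were then ranked by the likeness of their profile to each member, measured as the root mean square difference (RMS) of log2 CPM over the 18 libraries after centring each gene, among 13549 genes with a mean of at least 1 CPM. The nearest to *Jchain* were immunoglobulin genes, *Ighg2b* (RMS 0.902), *Ighg2c* (0.936) and *Ighv11-2* (1.03). *Mzb1* was nearest to the light chain variable genes *Igkv6-32* (0.645), *Igkv9-120* (0.647) and *Igkv12-46* (0.703). *Pou2af1* was nearest to *Tnfrsf13c* (0.741), which encodes the BAFF receptor of B cells, *Klhl14* (0.774) and *4930426D05Rik* (0.781). The other members had neighbours outside the immunoglobulin genes. They were *Rap2a*, *Nid2* and *Ncapg2* for *Prdm1* (0.266 to 0.28), *Tspan31*, *Atf6* and *Fam174a* for *Xbp1* (0.217 each), *Slc9a7*, *Rubcn* and *Ctps* for *Irf4* (0.271 to 0.336), and *Mocos*, *Dock4* and *Entpd1* for *Sdc1* (0.439 to 0.457). *Derl3* was nearest to *Gria3* (0.742), *Pycr1* (0.742) and *Alpl* (0.769), and *Fkbp11* to *Mcm5* (0.455), *Neto2* (0.488) and *Atp8a2* (0.496).

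The members were not a single profile. No member was among the 3 nearest genes of another. The closest pair was *Irf4* and *Fkbp11* (RMS 0.772), followed by *Derl3* and *Fkbp11* (0.823), *Mzb1* and *Pou2af1* (0.97) and *Prdm1* and *Xbp1* (1.02). The RMS is not scaled for how much a gene varies, so genes that vary little come out close. The centred profile itself had an RMS of 0.912 for *Irf4*, 0.987 for *Fkbp11* and 0.687 for *Xbp1*, against 2.71 for *Pou2af1*. The farthest pair was *Sdc1* and *Pou2af1* (4.39), of which *Sdc1* was highest in the nonmigrated and *Pou2af1* in the steady-state groups.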

How the data were processed

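Bulk RNA-seq libraries were made from sorted cells and sequenced as read pairs. The authors trimmed the reads with Trim Galore, aligned them with TopHat2 to the mm10 mouse genome and counted them per Ensembl gene with HTSeq. The deposited table holds these raw counts, 1 whole number per gene and sample, and no reads were realigned. The 5 summary rows of the counter (11.3 to 15.1% of each column) were removed, 0 columns belonged to no sample, and 49326 gene IDs were matched to GENCODE M21 for symbols, positions and exon lengths. Groups were taken from the sample labels. Reads shared by near-identical genes can be lost or split in such counting, which bears on the immunoglobulin genes. *Mzb1* overlaps another gene model of M21 on its strand over 695 of its 1215 exonic bases, and that model is not a row of the table.

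Genes were tested with edgeR 4.0.16 in R 4.3.3 (limma 3.58.1), by the quasi-likelihood F test with TMM scaling, filterByExpr with a minimum count of 10 and group as the only factor. The 12 inflamed libraries and the 12 LN libraries were fitted separately. Benjamini-Hochberg adjustment ran over all genes of a comparison. The study's methods name an adjusted p of 0.05, and the stricter 0.001 with a log2 fold change over 1 in size was used for calls here. SE is the log2 fold change divided by the root of F, intervals are 95%, and a pseudocount of 0.1 CPM was added only for log levels. The code was tested on simulated data. Between libraries of a group, a chi-square statistic of the gene counts divided by its degrees of freedom was 14.7 to 117, so the spread of the pools far exceeded counting error.

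Alternatives were the threshold of 0.05, DESeq2 size factors, the DESeq2 1.42.0 Wald test, other filters on low counts, a replicate block, other sets of libraries in the fit, scaling without immunoglobulin genes, and leaving out each library in turn. The members and gene lists were chosen with earlier results of these data known. Genes named beside the members follow a rule: up to 2 called genes per list and direction with the largest change and no overlap of libraries, the first 2 markers of a cell type, and the 3 nearest profiles per member. Further genes of the lists were named after their values were seen, which applies to *Ighm*, *Ighg1*, *Ighg2b*, *Igha* in the joint, *Iglc2*, *Ell2*, *Eaf2*, *Krt1*, *Krt10*, *Dsp*, *Sfn*, *Pacsin1*, *Srp54a*, *Fas*, *Bcl6* and *Bach2*. Tables were made with Python 3.11.15 and figures with matplotlib 3.10.9.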

Additional observations from a re-analysis of the deposited data

Results flagged for a closer look

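The change between nonmigrated and migrated cells differed between joint and skin for 4 members by the interaction test of edgeR at an adjusted p below 0.05. The difference in log2 fold change, joint minus skin, was -6.33 for *Jchain*, -3.57 for *Mzb1*, -3.36 for *Pou2af1* and -1.24 for *Irf4*. For the first 3 the skin nonmigrated libraries held few counts (4 to 95 for *Jchain*, 0 to 12 for *Mzb1* and 13 to 18 for *Pou2af1*). The change between steady-state and inflamed LN cells also differed between the sites for *Jchain*, with a difference of -1.60, and every migrated library lay above every steady-state library at both sites. The steady-state groups were titled PBS in the joint and Naive in the skin, so site and kind of control cannot be told apart in this difference. Groups of 3 libraries are too small for a test of single outlying libraries.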

How the results depend on the processing

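Of 1304 member values under the alternatives, 1179 kept their direction and their side of the threshold, 56 lost a call, 39 gained a call and 30 changed sign. The number of members called was most dependent on the settings for joint migrated against nonmigrated cells (4), where a fit of only the groups compared gave 2 and leaving out a library gave 1 to 4, and for joint against skin nonmigrated cells (3), where the former gave 0, an adjusted p under 0.05 gave 5 and leaving out a library gave 1 to 4. For the difference of the migration change between sites (0) the count was 2 without a filter on low counts, 2 with all 18 libraries fitted, 3 with DESeq2, 4 at 0.05 and 0 to 1 with a library left out. For the inflamed against the steady-state LN it was 3 with all 18 libraries and 3 to 5 with a library left out in the joint (5), and 4 to 7 with a library left out in the skin (7). For the difference between these it was 1 without a filter and 1 at 0.05 (0). In the other 3 comparisons no alternative moved the count by over 1.5 times. The cause of these shifts was not tested, except that a fit of fewer libraries or groups has fewer residual degrees of freedom. DESeq2 size factors and scaling without immunoglobulin genes moved library scales by ratios of 0.984 to 1.01.

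The values that changed sign were near 0 and uncalled. Ranges here are over all alternatives, of which leaving out a library is a part. *Prdm1* ranged from -0.0504 to 0.1702 (joint migrated over nonmigrated). For joint over skin migrated cells the ranges were -0.0821 to 0.0721 for *Prdm1*, -0.267 to 0.0013 for *Xbp1*, -0.1669 to 0.1982 for *Irf4* and -0.5033 to 0.2344 for *Fkbp11*. *Prdm1* was at 0.0333 there without a filter. *Xbp1* ranged from -0.1494 to 0.1261 for the difference of the migration change. In the joint-draining LN the ranges were -0.0535 to 0.1838 for *Xbp1* and -0.2581 to 0.2279 for *Mzb1*. For the difference of the LN change *Sdc1* ranged from -0.1197 to 0.315.

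Deviations from the group means of libraries with the same number correlated at -0.253 to 0.193, and in no comparison were all pairs above 0.1, so the numbers were not taken to pair the libraries. For migrated against nonmigrated cells of the skin, 6 of 6 libraries correlated best with their own number in the other group (4 of 6 in the joint and 0 to 3 of 6 in the other comparisons), a hint from the data and not from the design. A replicate block gave 4 and 6 members called for migrated against nonmigrated cells in the joint and the skin, 4 between nonmigrated groups (with *Irf4* added), 4 and 7 in the joint-draining and skin-draining LN comparisons (without *Sdc1* in the joint) and 0 in the other 4, and with it *Irf4* was at -0.0147 between the migrated groups.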
